A study of Mus musculus with 36 samples.

Results

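The regions described here are 788 of the 20213 consensus H2A.Z peaks of mouse hippocampus. They lie in Polycomb-marked chromatin, away from the gene start that the authors assigned to them. A peak was taken when it lay more than 1000 bp from that start, overlapped a region of H3K27me3, overlapped no region of H3K4me3 and carried no low-mappability entry. The assigned gene is called the nearest gene below. Other starts could lie closer, and 49 of the 788 peaks overlapped a window around a RefSeq start. Another 26 peaks met the first 3 conditions and were left out for mappability. No H2A.Z value entered the choice. H2A.Z was mapped by chromatin immunoprecipitation, and RNA was sequenced from the same tissue, in 4 groups of C57BL/6J mice with 3 libraries of each kind per group: young naive and young conditioned mice of 2.5 months, and old naive and old conditioned mice of 15.5 months. Conditioned mice received 3 shocks of 0.5 mA, each 2 s long, in a 5 min session and brains were frozen 30 min after it. No group carried an engineered allele, and whole hippocampus mixes neurons and glia. The labels do not say that libraries came from separate animals, so a p-value reflects only how these libraries vary.

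H2A.Z is a variant of histone H2A that is exchanged into nucleosomes near gene starts and enhancers by dedicated remodelling complexes. H3K27me3 is laid down by Polycomb repressive complex PRC2 and read by PRC1, and it covers many developmental regulators that a differentiated tissue keeps silent. H3K4me1 marks enhancers, H3K27ac marks active ones, and H3K4me3 marks gene starts. Marks were given in the authors' deposited table as regions on mm10, 1 set for all groups, and the sample they were mapped in is not named there.

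Genome sequence was at hand only as 300-base windows around RefSeq gene starts (GRCm38.p6, 250 bases before to 50 after each start). Of the 788 peaks, 49 overlapped such a window by at least 150 bp, in 60 windows, of which 12 belonged to the nearest gene itself and 48 to another gene or RNA. These peaks are far from the start the authors used and close to another one. The windows shown are the one in the peak with the deepest fall after training (Garnl3, chr2:33131387-33131686, minus strand), a window in the peak with the highest H2A.Z level (the RNA gene Gm52395 within Smarca2, chr19:26606461-26606760, minus strand), a window near Pax2 (chr19:44755502-44755801, plus strand) for a developmental regulator, and the windows with the highest and lowest CpG ratio (R3hdm2, chr10:127380418-127380717, plus strand, and Arhgef19, chr4:141244838-141245137, plus strand). Capitals mark each CG.
Garnl3: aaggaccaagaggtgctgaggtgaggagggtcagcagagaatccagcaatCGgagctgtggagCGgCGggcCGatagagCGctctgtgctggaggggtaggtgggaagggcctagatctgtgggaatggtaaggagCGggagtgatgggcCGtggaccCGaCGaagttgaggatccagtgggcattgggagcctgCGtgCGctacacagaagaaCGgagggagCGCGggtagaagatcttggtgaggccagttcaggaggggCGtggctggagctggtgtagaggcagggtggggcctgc
Gm52395: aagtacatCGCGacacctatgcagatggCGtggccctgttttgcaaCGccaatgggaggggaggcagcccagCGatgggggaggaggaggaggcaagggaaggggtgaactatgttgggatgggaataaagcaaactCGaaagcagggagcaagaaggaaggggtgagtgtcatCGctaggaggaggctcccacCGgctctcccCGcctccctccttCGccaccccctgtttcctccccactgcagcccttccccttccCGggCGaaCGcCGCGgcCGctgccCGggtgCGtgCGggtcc
Pax2: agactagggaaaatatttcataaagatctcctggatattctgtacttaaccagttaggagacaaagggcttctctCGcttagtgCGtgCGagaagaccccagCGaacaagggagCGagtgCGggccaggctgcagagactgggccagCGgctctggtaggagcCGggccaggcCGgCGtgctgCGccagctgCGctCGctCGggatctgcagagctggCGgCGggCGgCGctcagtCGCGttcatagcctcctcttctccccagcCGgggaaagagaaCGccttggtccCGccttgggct
R3hdm2: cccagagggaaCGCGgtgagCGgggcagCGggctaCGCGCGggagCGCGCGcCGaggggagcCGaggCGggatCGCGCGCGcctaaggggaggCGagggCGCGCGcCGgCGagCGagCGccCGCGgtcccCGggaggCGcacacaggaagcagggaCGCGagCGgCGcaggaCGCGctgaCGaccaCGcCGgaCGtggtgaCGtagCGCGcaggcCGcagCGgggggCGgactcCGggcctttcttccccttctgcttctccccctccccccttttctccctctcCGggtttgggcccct
Arhgef19: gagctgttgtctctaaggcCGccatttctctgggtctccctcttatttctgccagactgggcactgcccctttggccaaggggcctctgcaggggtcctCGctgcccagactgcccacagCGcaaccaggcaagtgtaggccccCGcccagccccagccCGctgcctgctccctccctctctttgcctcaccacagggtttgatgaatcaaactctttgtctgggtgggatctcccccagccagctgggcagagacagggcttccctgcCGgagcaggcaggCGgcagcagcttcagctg
The Garnl3 window holds 15 CG pairs and the R3hdm2 window 47, against 7 in the Arhgef19 window.

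The windows in these peaks held more CpG than start windows in general, as did those in distal peaks without any of the marks. Their median ratio of observed to expected CpG was 0.694 (quartiles 0.556 to 0.755), against 0.383 over all 32817 start windows, 0.778 in 3030 windows of bivalent promoters (peaks within 1000 bp of a start with both H3K4me3 and H3K27me3), 0.730 in 60 windows of distal peaks without marks, 0.513 in 23 windows of distal active enhancers and 0.445 in 14 windows of distal primed enhancers. A ratio above 0.6 with a GC content above 50% was found in 40 of the 60 windows (66.7%), in 58.3% of windows in unmarked distal peaks and in 33.3% of all windows. The GC box GGGCGG, searched on both strands like every motif here, was in 60% of the 60 windows, 61.7% of those in unmarked distal peaks, 78.6% of those in bivalent promoters and 35.6% of all windows, and it is itself made of G and C. The E-box CAGCTG was in 25% against 16.3%, CRE (TGACGTCA) in 5% against 1.79%, AP-1 (TGANTCA) in 11.7% against 7.81%, CCAAT in 25% against 37.4% and GAGAGAG in 6.67% against 10.1%. These shares describe the small part of the peaks that overlaps a start window, and several windows overlap each other.

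**Figure D1:**
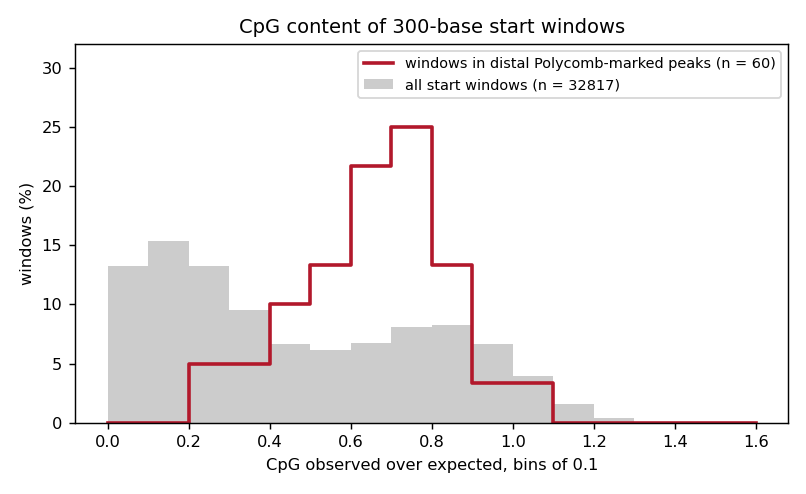
CpG observed over expected (x axis, bins of 0.1) against the percentage of 300-base start windows (y axis). Grey bars are all 32817 windows and the red line the 60 windows in distal Polycomb-marked peaks, whose median is 0.694.

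The peaks spread over 704 H3K27me3 regions, and 632 regions held a single one. Their median width was 629 bp and that of their H3K27me3 regions 3978 bp (quartiles 1944 to 7312). Regions wider than 10000 bp held 146 peaks, and the widest, of 88970 bp, held those of Hoxb9 and Hoxb3, homeobox genes of the body axis. The annotation placed 322 peaks in exons, 224 between genes and 150 in introns. H3K4me1 overlapped 736 peaks (93.4%) and H3K27ac 96 (12.2%). Over all peaks of the authors' deposited table these shares were 76.3% and 50.7%. They were 93.1% and 49.4% in distal peaks with H3K4me3, and 97.9% and 42.9% in bivalent promoters. Of 649 nearest genes, 85 belong to developmental factor families such as Hox, Pax, Tbx and Lhx, and these were nearest to 119 peaks. Of all 24060 genes, 283 belong to these families. Il12rb1, Lhx2, Mef2c, Nfix, Otx1, Pax2, Runx3 and Tbx2 had 4 peaks each. Lhx2 is a cortical and hippocampal patterning factor, Mef2c an activity-dependent neuronal factor, and Runx3 a factor of sensory neurons and lymphocytes. Of Polycomb's own listed genes, 1 of 12 in PRC2 and 2 of 20 in PRC1 were nearest genes, where 649 of all 24060 genes were. Jarid2, a PRC2 cofactor, had 1 peak, and Cbx8, a PRC1 reader, and Bcor, a partner of PRC1, had 3 each. Kdm6b, the only nearest gene among 3 listed H3K27 demethylases, had 2.

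H2A.Z stood at an intermediate level. On the log2 concentration scale of the authors' deposited table, the median level of the 788 peaks was 4.91 for young naive and 4.58 for young conditioned mice, and 5.43 for old naive and 4.69 for old conditioned mice. Bivalent promoters had medians of 6.63, 6.06, 7.45 and 6.24 in the same order in the authors' deposited table, and distal peaks without any of the marks 2.39, 2.70, 2.58 and 2.51. Distal active enhancers (H3K4me1 and H3K27ac, no H3K27me3) had 4.91, 3.86, 5.23 and 4.42 and primed ones (H3K4me1 alone) 4.61, 4.12, 4.94 and 4.39 in the authors' deposited table. The table holds no value per library, so no spread and no test can be given for these levels, and differences between group levels are shifted by a fixed amount from the folds. Level rose with peak width across the 788 peaks (Spearman 0.781, a description over peaks that share libraries), but hardly moved with the width of the H3K27me3 region (0.0175). Levels were not adjusted for width, and the classes differed in it. Median widths were 629 bp here, 1080 bp in bivalent promoters, 738 bp in unmarked distal peaks, 560.5 bp in active and 528 bp in primed enhancers. In 396 peaks that shared an H3K27me3 region with an H3K4me3-marked H2A.Z peak, the level was below that of the partner in 313, with a median difference of -1.06 log2.

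**Figure D2:**
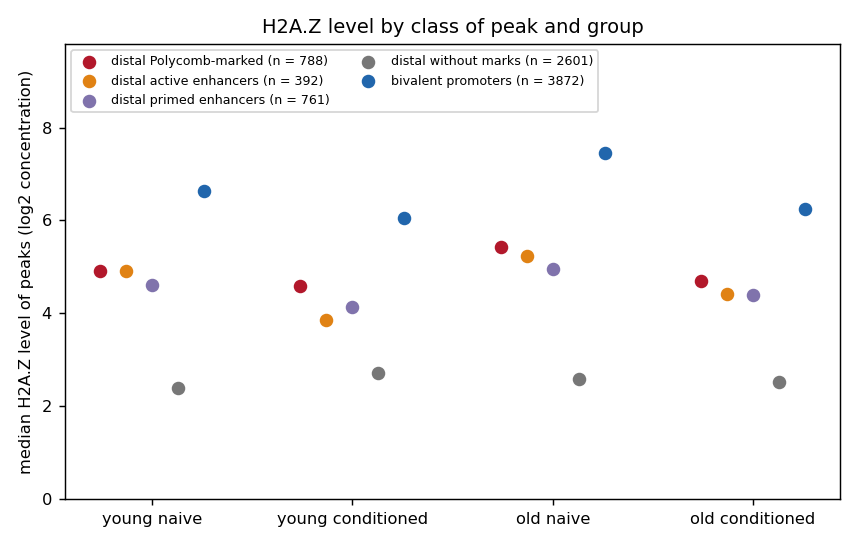
Median H2A.Z level (y axis, log2 concentration of the authors' deposited table) of 5 classes of peak in the 4 groups (x axis). The distal Polycomb-marked peaks, in red, sit between 4.58 and 5.43, below the bivalent promoters in every group; each point is a median over peaks, with no error bar because the table holds no library values.

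Some peaks were far above the median. The highest mean level belonged to a peak of 2141 bp in an intron of Smarca2, a subunit of the BAF remodelling complex (chr19:26605811-26607952), at 8.01 and 7.53 for naive and conditioned young mice and at 8.96 and 7.82 for the old ones in the authors' deposited table. It was called a peak in 3 of 3 libraries of every group. Peaks near Tshz3, Nr3c1 (the glucocorticoid receptor), Hic1, Pcdh17, Bhlhe41 and Ptpn3 were also among the 8 highest. Only 39 of the 788 peaks were called in all 3 libraries of every group, 314 were in at least 1 group, and 40 were called in no more than 1 library of any group.

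After training of young mice H2A.Z was lower at 69 of the 788 peaks and higher at 2, at the authors' FDR under 0.05. Of all 20213 peaks, 13.2% were called lower and 0.109% higher in the authors' deposited table, against 8.76% lower among the 788. Shares called lower in other classes of the authors' deposited table were 20.7% of active enhancers, 12.5% of primed enhancers, 1.08% of unmarked distal peaks, 18.5% of distal peaks with H3K4me3 and 8.32% of bivalent promoters; these shares were not tested against each other. The median fold (conditioned minus naive, log2) was -0.34, against -0.57 over all peaks of the authors' deposited table, so that relative to all peaks it lay 0.23 higher. The 69 peaks had a median level of 5.32 in young naive and 2.57 in young conditioned mice. In 49 of them no young conditioned library had a called peak, while 56 had a call in 2 or 3 young naive libraries.

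The deepest fall lay at -44262 bp from the start used for Garnl3, a GTPase-activating protein gene, in the peak whose window is printed above. Its level was 6.22 in young naive and 0.254 in young conditioned mice, and 6.68 in old naive and 4.83 in old conditioned mice in the authors' deposited table. Its fold in young mice was -5.97 (FDR 3.97e-11) there. It was called in 3, 0, 2 and 1 libraries of those groups, so the young conditioned group stands alone at the bottom. Next came peaks near Scrn2 (fold -5.50), Sox4 (-5.29), Klhl8 (-4.97) and Fgf9 (-4.58) in the authors' deposited table; Sox4 is a factor of neuronal progenitors and Fgf9 a growth factor. All 5 had no call in any young conditioned library. In that group the Scrn2, Sox4, Klhl8 and Fgf9 peaks stood at 0.417, -0.384, -0.139 and -0.384 in the authors' deposited table. The size of such folds thus rests on very low levels. A young conditioned level under 2 was found in 24 of the 69 lower peaks. Both rises were exonic. The Hcn2 peak, in a gene for a pacemaker channel, stood at 1.79 in young naive and 5.35 in young conditioned mice (fold 3.55, FDR 0.0341). The Dusp8 peak, in a phosphatase gene, stood at 3.63 and 5.54 (fold 1.91, FDR 0.0253), both by the authors' deposited table.

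How often a peak was called varied with its location, a difference that was not tested. Exonic peaks had a median fold of 0.03 in young mice and 11 of 322 were called in either direction, intronic peaks -0.59 and 15 of 150, and intergenic peaks -0.64 and 33 of 224, by the authors' deposited table. Over all peaks of the authors' deposited table the medians were -0.54, -0.40 and -0.46 for exonic, intronic and intergenic peaks. The called shares there were 12.1%, 10.2% and 13.4%, without such a split. The intronic (10%) and intergenic (14.7%) shares here were near those and the exonic share (3.42%) below. But all exonic peaks lay mostly near starts, at a median of 204 bp, against 3717 bp for the exonic peaks here. Among distal exonic peaks, 11.4% of active and 3.26% of primed enhancers were called in the authors' deposited table. The primed enhancers split the same way by the authors' deposited table, with 0.03 in exons and -1.13 between genes. Among peaks in H3K27me3 regions over 10000 bp, 1 of 146 was called and the median was -0.12. In regions up to 2000 bp 26 of 206 were called and the median was -0.52, while 13.3% of all peaks were called. Of the 146 peaks 74 were exonic, against 248 of 642 in regions up to 10000 bp. Exonic, intronic and intergenic shares called were 0%, 0% and 3.13% over 10000 bp, against 4.44%, 11.5% and 16.7% up to it. The medians were 0.084, -0.57 and -0.27, against 0.0048, -0.59 and -0.69. With H3K27ac 9 of 96 peaks were lower, and without it 60 of 692. Peaks just inside the distance threshold (within 500 bp of it) had a median fold of -0.55 over 121 peaks, and peaks just outside it (also within 500 bp) -0.63 over 119.

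**Figure D3:**
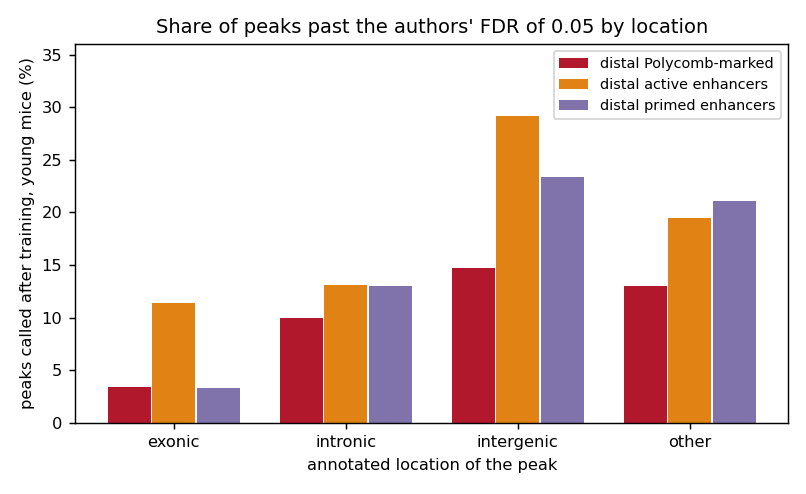
Percentage of peaks past the authors' FDR of 0.05 after training in young mice (y axis) by annotated location (x axis) for 3 classes of distal peak. The distal Polycomb-marked peaks, in red, reach 14.7% between genes and 3.42% in exons.

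After training of old mice 3 of the 788 peaks (0.381%) were lower and 0 higher, against 10.6% lower and 0.0396% higher among all peaks in the authors' deposited table. The median fold was -0.57, against -0.93 over all peaks of the authors' deposited table. They include peaks near Hes7, a Notch target of the segmentation clock, and Ptpn3, a phosphatase gene, with folds of -1.23 (FDR 0.0316) and -1.10 (FDR 0.0360) in the authors' deposited table. The Hes7 peak stood at 8.30 in old naive and 6.86 in old conditioned mice, and the Ptpn3 peak at 8.46 and 7.14, in the authors' deposited table. Neither was called in young mice. Lower calls in old mice made up 1.02% of active enhancers, 0.131% of primed enhancers, 0.192% of unmarked peaks, 6.09% of distal peaks with H3K4me3 and 16.8% of bivalent promoters in the authors' deposited table.

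Folds at the 2 ages mostly had the same sign. The young and old comparisons share no libraries, and over the 788 peaks their folds gave Spearman 0.529 and Pearson 0.524 as a description, against 0.587 Spearman over all peaks of the authors' deposited table. A fold below 0 was found at both ages in 472 peaks, in young mice alone in 60 and in old mice alone in 131. Such folds made up 67.5% (young) and 76.5% (old) of the 788 peaks. Over all peaks of the authors' deposited table the shares were higher, 81.1% and 87.3%, so a shared negative sign is not particular to these peaks. Of the 69 peaks lower in young mice, 68 had a fold below 0 in old mice, with a median of -1.23, against -0.49 in the other peaks; 7 of the 69 had a p under 0.05 in old mice and none an FDR under 0.05. Whether the training fold differs between ages was not tested, since the table holds no such comparison.

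**Figure D4:**
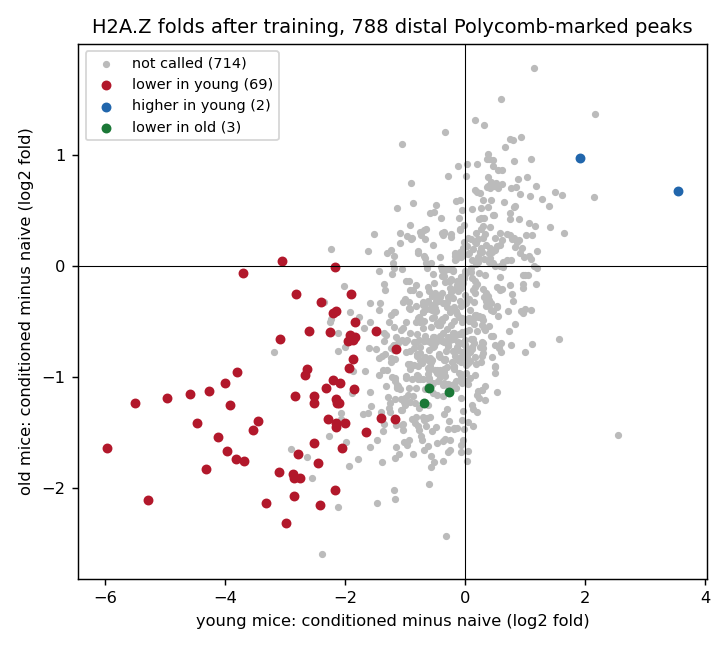
Log2 fold of H2A.Z after training in young mice (x axis) and old mice (y axis) for each of the 788 distal Polycomb-marked peaks, from the authors' deposited table. Peaks lower in young mice (69, red) nearly all lie below 0 in old mice too, where 87.3% of all peaks do. The 3 lower in old mice (green) lie near the middle of the young axis.

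No peak was called between ages. The median fold, old minus young, was 0.17 in naive and 0.02 in conditioned mice, against 0.33 and 0.09 over all peaks of the authors' deposited table. At the authors' FDR 0 of the 788 peaks was called, as was 0% of all peaks, in either comparison. An unadjusted p under 0.05 was found for 18 and 3 of the 788 peaks (2.28% and 0.381%), against 12.1% and 0.554% of all peaks in the authors' deposited table. The smallest p values in naive mice were at Hcn2 (fold 2.76, FDR 0.243), Nr3c1 (1.09, 0.243) and Commd3 (1.85, 0.243) in the authors' deposited table. The Commd3 peak (chr2:18676122-18676693), in its 3′ UTR, lies next to Bmi1, a PRC1 gene that starts at 18677018, and stood at 4.88 in young naive and 7.06 in old naive mice in the authors' deposited table. In conditioned mice they were at Klhl8 (3.18), Rora (2.93) and Sept9 (3.13), each with FDR 1.00 in the authors' deposited table and each with no call in any young conditioned library.

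RNA of the nearest genes was examined in 12 libraries of 9410843 to 13350561 counts. Expression is in CPM, counts scaled to a common library size, which is not per length. All 649 nearest genes were in the count table and 491 (75.7%) passed the filter on low counts, against 59.9% of all genes. That share was below those of genes nearest distal active enhancers (91.7%) and bivalent promoters (87.4%). Median expression was 8.24 CPM for the 649 genes and 3.62 over all genes. It was 35.5 for genes nearest active enhancers and 16.5 for those nearest bivalent promoters. These differences were not tested. Developmental factors among the 649 genes passed in 41 of 85, and those among all genes in 118 of 283. Their median expression was 0.477 CPM for the 85 and 0.212 for the 283. Genes whose peaks lie in regions over 10000 bp were under 1 CPM in 57.0% of 107, against 24.1% of 556 genes with peaks in narrower regions. Hoxb9 and Hoxc8 had no count in any library. Some nearest genes were well transcribed, among them Ddn, a dendritic protein gene, at 1721 CPM. Hpca, the calcium sensor hippocalcin, was at 1246 CPM and Shank1, a postsynaptic scaffold, at 1184 CPM. The Ddn peak lies in one of the wide regions, of 22483 bp, so wide regions held transcribed genes too. Excitatory neuron markers summed to 5690 to 7045 CPM. All 7 choroid plexus markers were detected. Their lowest, median and highest sums were 199, 1286 and 3136 CPM in young naive, 62.1, 621 and 2218 in young conditioned, 172, 583 and 1858 in old naive and 71.1, 79.8 and 162 in old conditioned libraries, and their part in the results below was not tested.

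After training, 1 nearest gene passed a test. By edgeR's quasi-likelihood test with Benjamini-Hochberg adjustment at 0.05, 0 of 491 were called in young and 0 in old mice (0.0278% and 0.0139% of all tested genes), with 40 and 62 (8.15% and 12.6%) at an unadjusted p under 0.05, against 6.63% and 7.16% of all tested genes. DESeq2 called 0 and 1, against 7 and 10 of the 14405 genes that edgeR tested. Averaged over ages, Fos alone rose, while 0.0764% of all tested genes were called. Fos, the activity-induced AP-1 subunit, was at 10.2, 2.44 and 2.81 CPM in young naive, 20.7, 14.7 and 24.6 in young conditioned, 5.76, 4.22 and 2.87 in old naive and 18.4, 20.9 and 15.7 in old conditioned libraries. Every conditioned library was above every naive one, and 1 young naive library stood above the other two. The log2 change was 2.06 ± 0.26 (SE; edgeR adjusted p = 0.00199), and at each age alone 2.03 (adjusted p = 0.10) and 2.08 (adjusted p = 0.112). Its peak lies at -1622 bp from the start (chr12:85471916-85472641) with H3K27ac, and its H2A.Z fold was -1.19 in young mice (FDR 0.122) and -0.72 in old (FDR 0.51) in the authors' deposited table. It was called in 3 of 3 libraries of every group.

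Of the 22 early activity genes, 6 had such a peak, and 1 of their 7 peaks was called lower in young mice, a share near the 13.2% of all peaks. The peak upstream of Nr4a3, an inducible nuclear receptor, stood at 6.31 in young naive and 4.11 in young conditioned mice (fold -2.20, FDR 0.00130) in the authors' deposited table. Egr1 RNA was at 90.1 and 154 CPM in young naive and conditioned mice. Averaged over both ages, with old mice included, its log2 change was 0.81 (edgeR adjusted p = 0.073). Of the 20 hippocampal neuron factors, 10 had 22 peaks, of which 4 were lower in young mice by the authors' deposited table, where 13.2% of all peaks were. The 3 peaks near Emx1, a cortical patterning factor, had folds of -2.66, -2.51 and -0.06 in young mice in the authors' deposited table, the first pair past the FDR, while Emx1 RNA was at 6.97 and 6.17 CPM in young naive and conditioned mice. Of 4 peaks near Lhx2, 1 was lower (fold -2.09), and 1 of 2 near Nr2f1, a regional patterning factor (-2.85), in the authors' deposited table. None of these 10 genes passed edgeR's test in RNA after training, and none of the tested members of the PRC2 (11), PRC1 (20) or H2A.Z and exchanger (10) lists passed it in any of the 6 RNA comparisons. An unadjusted p under 0.05 was found for 0 to 3 PRC2, 2 to 4 PRC1 and 0 to 4 H2A.Z and exchanger genes per comparison, and DESeq2 called 1 of these genes, Cbx7 of PRC1, with age averaged over conditions. By edgeR 4 of the 22 early activity genes rose in young mice, 2 in old mice (Dusp1 and Fosb) and 8 averaged over ages.

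With age, BC061194, whose peak lies just past Bmi1 on chromosome 2, rose in naive (log2 1.61 ± 0.27 SE, edgeR adjusted p = 0.0446) and in conditioned mice (1.66 ± 0.25, adjusted p = 0.0223), where 0.0555% and 0.0347% of all tested genes were called. Young libraries lay between 0.980 and 1.92 CPM and old ones between 2.92 and 4.89, without overlap. Averaged over conditions (0.375% of all tested genes called), BC061194 (1.63, adjusted p = 0.000582) and Onecut1, a neuronal homeobox factor (1.53 ± 0.25, adjusted p = 0.0163), rose, as did Rasgrf1, a Ras exchange factor (0.20 ± 0.04, adjusted p = 0.0491). Mki67, the proliferation marker, fell by 1.21 (SE 0.23, adjusted p = 0.0382), from 1.59 to 3.51 CPM in young to 0.717 to 1.59 in old libraries. All these p-values are from edgeR. The calls of Onecut1, Rasgrf1 and Mki67 were lost when some single libraries were left out, with edgeR adjusted p up to 0.0700, 0.143 and 0.105, and so were those of BC061194 in naive and in conditioned mice alone, with up to 0.194 and 0.204. DESeq2 gave BC061194 no adjusted p in naive or conditioned mice alone. Its call averaged over conditions held in DESeq2 and without each of the 12 libraries in turn. Their H2A.Z folds with age were not called, and the peak near BC061194 (chr2:18688671-18689724) had a fold of 0.31 in naive and 0.37 in conditioned mice in the authors' deposited table.

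**Figure D5:**
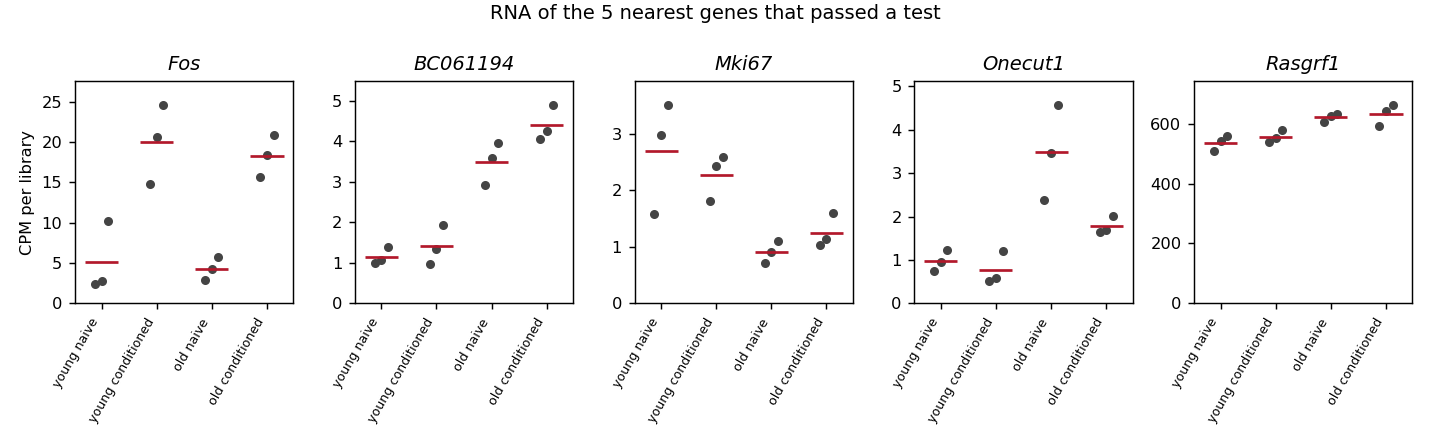
CPM in each library (points, y axis from 0) and group mean (red line) for the 5 nearest genes that passed a test, by group (x axis). Fos is high in conditioned groups of both ages, BC061194 runs from 0.980 to 1.92 in young and from 2.92 to 4.89 in old libraries.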

How the data were processed

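The authors deposited read counts per gene symbol for 12 RNA libraries (3 per group) and 1 table of consensus H2A.Z peaks on mm10. Per the file headers, that table gives the authors' log2 folds and log2 group concentrations, their p-value and FDR per comparison, how many libraries of each group called the peak, and where genes and 4 histone marks lie. It names no replicate values, so no test of H2A.Z was run here. Tools named in the submitters' processing notes are DiffBind 1.12.2, MACS2 2.0.10 and edgeR 3.8.6 besides HTSeq 0.6.1p2, Bowtie2 2.2.1, TopHat and Trim Galore 0.4; of what each did, the annotation and strand use, the sources used here say nothing. Signs were set so that a fold is conditioned against naive, or old against young. Groups written T were read as conditioned, since N was read as naive. Level differences and folds differ by a constant, 0.215 (training, old), -0.334 (age, naive) and -0.118 (age, conditioned).

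RNA counts were tested in edgeR 4.0.16 (R 4.3.3), with TMM, filterByExpr and a quasi-likelihood fit of 4 groups over 14405 genes, and in DESeq2 1.42.0. The edgeR step was tested on simulated data. The 12 input libraries were not analysed here. No genome was at hand, so sequences come from RefSeq start windows (GRCm38.p6) in place of peak centres; of 788 peaks, 785 had their transcript in that table. Members and lists were chosen with earlier results of these data known. Named peaks are the 8 with the highest mean level, the 5 highest and 5 lowest called folds of a comparison (or the 3 smallest p), and called, highest-CPM or listed nearest genes; Hoxb9, Hoxb3 and Hoxc8, and sequence examples, were chosen after their values were seen. A peak that this rule takes is not reported here.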

Additional observations from a re-analysis of the deposited data

How the results depend on the processing

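The authors' folds were tried as deposited, centred on the median of all peaks, and as differences of the group levels; the last 2 and the tests of single nearest genes under other settings were chosen after the data were seen. Centring turned the median fold of the 788 peaks to 0.23 (training, young), 0.36 (training, old), -0.16 (age, naive) and -0.073 (age, conditioned), so the sign of a median holds only against the deposited scale. As level differences the medians were -0.79 (training, old), 0.50 (age, naive) and 0.14 (age, conditioned). Peaks called in 3 of 3 libraries of at least 1 group gave -0.81, 0.32 and -0.0036 for those comparisons. A peak could pass this filter through the group where it was high. Calls in 3 of 3 libraries numbered 215 in old naive, 149 in young naive, 134 in young conditioned and 103 in old conditioned mice. The filter thus depends on the values compared and is no check on these medians. Peaks more than 5000 bp away gave -0.47 for training in old mice. That distance left 353 peaks, a median level of 4.71 and H3K4me1 in 90.7%; H3K4me1 was at 95.4% for peaks wholly inside H3K27me3 and 90.4% with low-mappability peaks kept. At an FDR under 0.01, 32 peaks were called in young and 0 in old mice, and 11 in old mice under 0.1. Without the filter on low counts, nearest genes called were 1 (training, young), 2 (training, old), 3 (age, naive), 2 (training averaged) and 14 (age averaged). DESeq2 called 1 (training, old), 0 (age, naive, with no adjusted p for BC061194), 9 (age, conditioned) and 18 (age averaged). Of the 14405 genes that edgeR tested, DESeq2 called 10, 38, 82 and 234 in these comparisons. Counts over all genes were not taken without the filter or with a library left out. Leaving out each RNA library in turn gave 0 to 4 (training, young; 4 without young naive 79), 0 to 1 (training, old; 1 without young naive 79 or 81), 0 to 1 in each single age comparison, 1 to 5 (training averaged; 5 without young naive 79, 2 without old conditioned 65) and 1 to 19 (age averaged; 19 without young naive 81, 1 without old conditioned 61 or 63, young conditioned 75 or young naive 83, 2 without old naive 67 or young conditioned 77); the cause was not tested. No paired analysis was possible because each RNA library has a number of its own and the H2A.Z table holds no values per library.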
